A study of Mus musculus with 4 samples.

Results

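The SoxC genes Sox4, Sox11 and Sox12 and the SoxD genes Sox5, Sox6 and Sox13 were followed in maps of the demethylase PHF2 and of the histone mark H3K9me2. These 6 genes were taken by name, 6 of 21755 protein-coding genes of the GENCODE M21 annotation on chromosomes 1 to 19 and X. They were chosen by family and by values of these maps, their PHF2 promoter peaks and the H3K9me2 regions in their bodies, so these values are a description and carry no test. The chromatin came from cultured neural stem cells of wild-type C57BL/6J mice, taken at E12.5, a stage when cortical neurons begin to form, and grown with recombinant human EGF at 20 ng/ml and FGF at 10 ng/ml. The PHF2 ChIP (Cell Signaling antibody D45A2), its input, the H3K9me2 ChIP (Abcam antibody ab1220) and its input were 1 sample each, 4 in all. How many embryos gave the cells is not stated in the labels, and the inputs were not used here.

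Sox proteins bind DNA through an HMG box, a domain related to that of the sex-determining factor SRY. SoxC proteins carry an activation domain at their end, and SOX4 and SOX11 are known for switching on neuronal genes in cells that leave the progenitor state. SoxD proteins lack a known activation domain of their own and pair through a coiled coil. SOX5 and SOX6 assist or oppose SoxE proteins, in cartilage and in the oligodendrocyte lineage, and both also act in the cortex. PHF2 belongs to the KDM7 family of demethylases. Its PHD finger docks on H3K4me3, which is found at active promoters. Its described substrate is H3K9me2, which is typical of repressed chromatin.

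The PHF2 list held 5992 peaks and the H3K9me2 list 36111 regions on the chromosomes analysed. Neither list gives read totals, so the depth is unknown. The authors' peak score, with a median of 229.1, has no stated scale and served only to rank peaks. The lowest PHF2 score in the list, rounded, was 100, and whether weaker peaks were left out is not stated. A start or gene without a PHF2 peak is therefore one with none in this list, and weaker PHF2 signal there was not tested. Of the neural stem cell markers, 7 of 8 had a PHF2 peak within 1 kb of a start (all but Msi1), and of the neuron markers 1 of 4 did (Map2), beside 29.3% of all protein-coding genes. A peak is not a measure of expression, and peaks of a culture do not tell apart a signal in all cells from one in some of them.

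The 6 genes differ in build. Sox4 (4795 bp) and Sox11 (8311 bp) have 1 transcript of 1 exon each. Sox12 (4453 bp) has 2 transcripts, 1 of them with a second exon, that start 17 bp apart. Sox5 spans 953553 bp with 14 transcripts of up to 15 exons, Sox6 spans 567925 bp with 16 transcripts of up to 17 exons, and Sox13 spans 42075 bp with 5 transcripts of up to 14 exons. When starts within 100 bp of each other were merged, each SoxC gene had 1 start, Sox5 had 5, Sox6 had 10 and Sox13 had 4. Some of these belong to retained-intron or other noncoding transcripts of the annotation and may be ends of incomplete models. All 6 genes lie on the minus strand.

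The DNA in front of the starts shows how the genes differ in the feature that most promoters with PHF2 share, the CpG dinucleotide. The 200 bases upstream of 8 starts are printed from the GRCm38 (mm10) genome, 5′ to 3′ along the minus strand, with every CpG in capitals. The SoxC genes come first, then Sox13, and then for Sox5 and Sox6 a start with a PHF2 peak followed by a start of coding transcripts without one.
Sox4, with PHF2 (chr13:28953714-28953913, minus strand): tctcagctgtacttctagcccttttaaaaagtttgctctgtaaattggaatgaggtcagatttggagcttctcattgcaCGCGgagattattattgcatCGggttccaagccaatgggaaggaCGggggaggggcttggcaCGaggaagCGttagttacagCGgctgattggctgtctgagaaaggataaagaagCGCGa
Sox11, with PHF2 (chr12:27342575-27342774, minus strand): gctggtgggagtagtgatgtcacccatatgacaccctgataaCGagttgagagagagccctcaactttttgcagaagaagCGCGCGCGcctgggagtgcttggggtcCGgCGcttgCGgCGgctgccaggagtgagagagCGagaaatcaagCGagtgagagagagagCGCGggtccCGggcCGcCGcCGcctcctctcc
Sox12, with PHF2 (chr2:152398064-152398263, minus strand): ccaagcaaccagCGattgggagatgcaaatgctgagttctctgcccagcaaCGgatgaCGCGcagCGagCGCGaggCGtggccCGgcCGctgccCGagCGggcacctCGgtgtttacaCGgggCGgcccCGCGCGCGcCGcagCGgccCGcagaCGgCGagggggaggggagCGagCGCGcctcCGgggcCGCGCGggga
Sox13, with PHF2 (chr1:133424378-133424577, minus strand): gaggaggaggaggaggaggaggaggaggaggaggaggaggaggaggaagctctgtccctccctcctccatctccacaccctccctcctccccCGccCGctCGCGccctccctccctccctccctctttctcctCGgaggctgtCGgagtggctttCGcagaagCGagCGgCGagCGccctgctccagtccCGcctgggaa
Sox5 start of the long coding transcripts, with PHF2 (chr6:144209569-144209768, minus strand): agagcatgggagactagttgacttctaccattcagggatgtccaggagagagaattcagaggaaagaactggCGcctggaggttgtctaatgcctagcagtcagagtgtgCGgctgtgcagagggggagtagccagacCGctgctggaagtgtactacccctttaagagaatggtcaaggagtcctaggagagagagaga
Sox5 start of the short coding transcripts, without PHF2 (chr6:143947107-143947306, minus strand): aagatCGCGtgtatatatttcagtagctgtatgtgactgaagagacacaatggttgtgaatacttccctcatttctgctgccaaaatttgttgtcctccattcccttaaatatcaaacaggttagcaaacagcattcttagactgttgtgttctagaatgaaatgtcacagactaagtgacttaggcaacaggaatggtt
Sox6 coding start under the peak, with PHF2 (chr7:116031048-116031247, minus strand): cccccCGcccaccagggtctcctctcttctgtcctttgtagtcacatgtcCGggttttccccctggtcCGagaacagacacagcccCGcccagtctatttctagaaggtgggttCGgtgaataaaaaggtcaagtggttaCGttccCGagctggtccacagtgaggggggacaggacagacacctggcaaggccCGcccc
Sox6 coding start farther down, without PHF2 (chr7:115995087-115995286, minus strand): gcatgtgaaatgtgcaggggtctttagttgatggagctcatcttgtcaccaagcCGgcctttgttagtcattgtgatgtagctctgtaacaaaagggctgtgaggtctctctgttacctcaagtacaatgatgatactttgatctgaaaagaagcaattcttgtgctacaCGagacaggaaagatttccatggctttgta
The Sox12 stretch holds 31 CpG, the most of these 8, and the Sox11 stretch holds 17, the Sox13 stretch 12 and the Sox4 stretch 9. The Sox6 start under the peak has 8 and the Sox6 start without a peak has 2. At Sox5 the long coding start, in a peak, has 3 and the short coding start, without one, has 2. The same 200 bases before the 5′-most Sox5 start, which lies in the higher-scoring Sox5 peak and is not printed, hold 6.

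All 6 genes had a PHF2 peak within 1 kb of an annotated start, where 29.3% of all protein-coding genes had one. Because that peak was part of why the genes were picked, nothing is read from the count. Their 7 promoter peaks, 2 of them at Sox5, all covered an annotated start of their gene. Outside the 1 kb limit, a further peak lay 4262 bp upstream of Sox4 and another within a Sox5 intron, 22086 bp from a start. None of the 7 peaks lay within 1 kb of a start of another protein-coding gene. Sox4 and Sox11 lie far from coding neighbours. The gap to Cdkal1 upstream of Sox4 is 238033 bp, and that to Cmpk2, the nearer neighbour of Sox11, is 854427 bp. Sox12 is 13892 bp from Zcchc3, whose start carries a separate PHF2 peak (score 750.8) that it shares with 6820408C15Rik.

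Sox4, the SoxC gene with the highest score, had a peak of 4768 bp (chr13:28949414-28954181) with a score of 2931, rank 6 of 5992 by score and 16 by length. The peak began 468 bp upstream of the start and ran 4299 bp downstream, over 89.7% of the gene. It held the whole coding sequence and went on for 2288 bp into the 3′ part of the transcript. A separate, weaker peak of 1455 bp (chr13:28957975-28959429, score 216.4, rank 3224) lay upstream of it, with no annotated coding start within 1 kb. This upstream peak had 55.7 CpG per kb, close to the 59.1 per kb of the main peak. The lincRNA gene Gm26735 overlaps the end of Sox4 on the opposite strand, and its own start had no PHF2 peak.

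Sox11, the other SoxC gene known chiefly from young neurons, had the longest peak of the 6 genes, 5634 bp (chr12:27338261-27343894), rank 6 by length and 15 by score (2369). It reached 1320 bp upstream and 4313 bp downstream of the start, over 51.9% of the gene, and it also held the whole coding sequence. The peak lay over 2 separate CpG-rich stretches. From 1400 bp before to 1400 bp after the start there were 96.4 CpG per kb, then only 15.8 per kb over the next 1200 bp, then 61.2 per kb from 2600 to 4300 bp, in the part of the transcript after the coding sequence. These limits were chosen after the profile had been seen. The peak spanned the CpG-poor gap as well as both rich stretches.

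Sox12, the SoxC gene known as the weakest activator of the trio, had a much smaller peak. It was 1944 bp long (chr2:152396622-152398565) with a score of 454.3, rank 1063 by score and 853 by length. It too held the whole coding sequence of 942 bp and ended 135 bp past it. Sox12 had the densest CpG of the 6, 116.8 per kb in the peak, against 69.9 per kb at Sox11 and 59.1 at Sox4, so the order by CpG density is the reverse of the order by score among the SoxC genes. A further stretch with 63.8 CpG per kb, from 1300 to 500 bp upstream of the start, lay almost wholly outside the peak. Its limits were also chosen after the profile had been seen.

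The coding sequence lay wholly within the PHF2 peak at all 3 SoxC genes and at none of the SoxD genes. Of the 6374 protein-coding genes with a PHF2 promoter peak this held for 2.59%, and of the 178 among them with single-exon transcripts only, for 60.7%. The SoxC coding sequences are short, from 942 bp at Sox12 to 1320 bp at Sox4, and each lies in a single exon. Single-exon genes had a PHF2 promoter peak in 13.8% of cases, and their highest-scoring peaks had a median length of 1534 bp, beside 1322 bp over all genes with such a peak. Of these 178 single-exon genes, 8 had a top peak of 4000 bp or longer, and Sox4 and Sox11 were 2 of them. Of all 6374 genes with a promoter peak, 42 had one. In the list as a whole, 41 peaks reached that length.

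**Figure D1:**
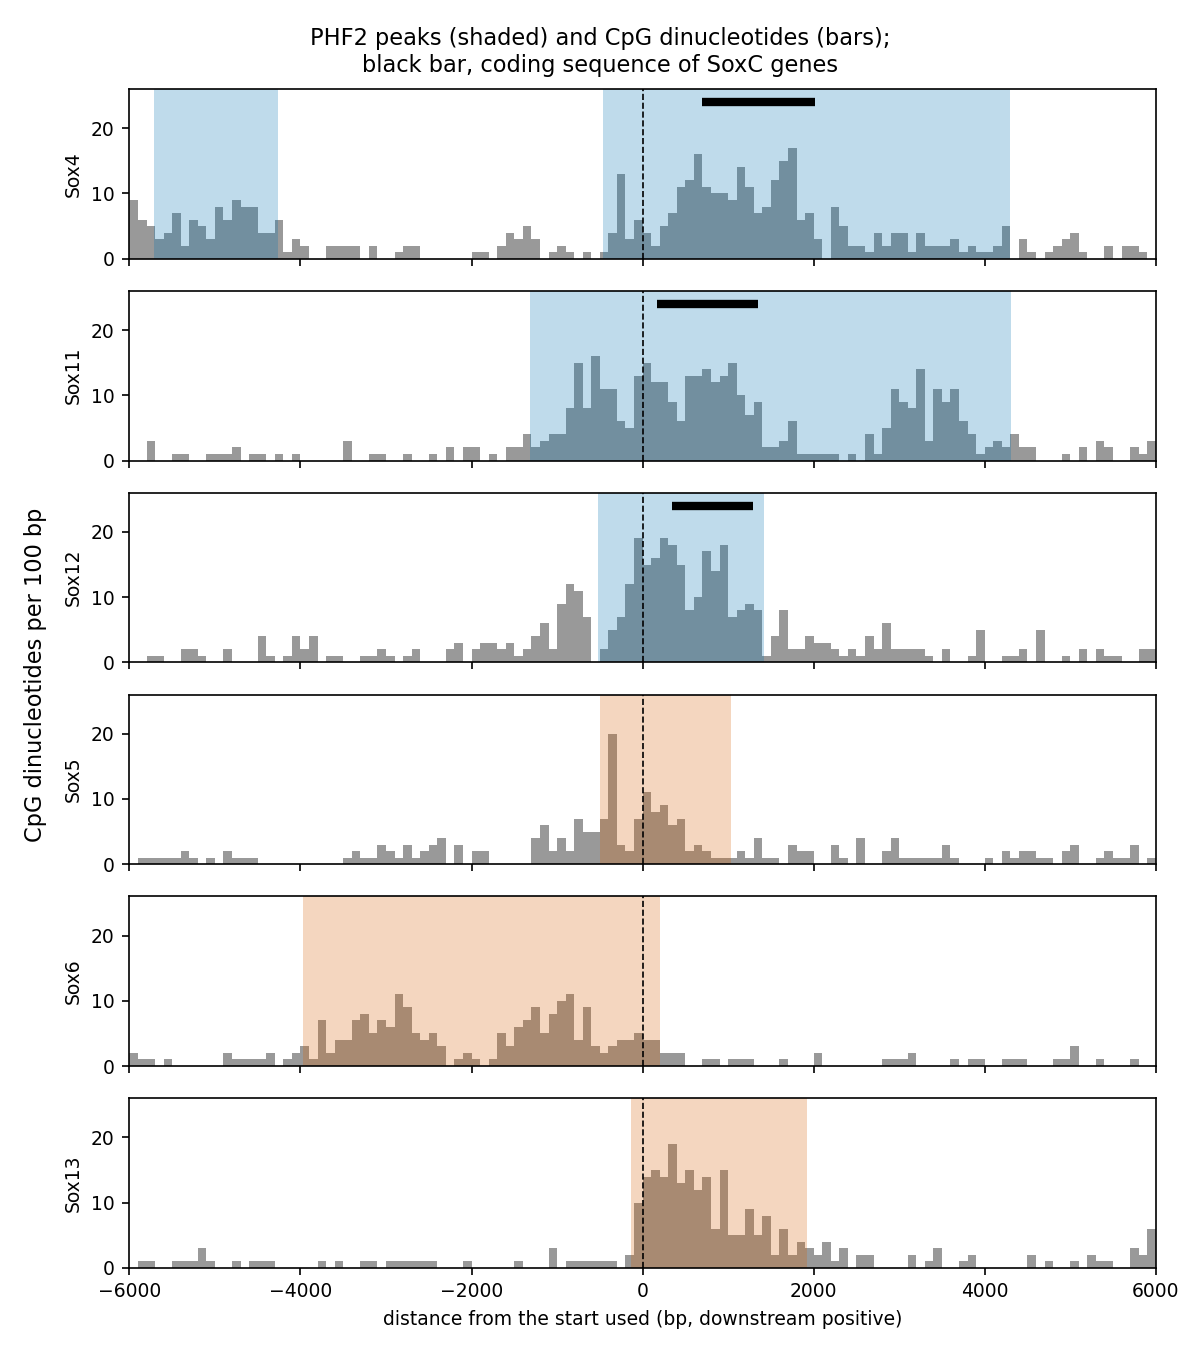
PHF2 peaks (shaded, blue for SoxC and orange for SoxD) and CpG dinucleotides per 100 bp (grey bars, vertical axis) by distance from the start used for each gene in bp (horizontal axis, dashed line at 0), with the SoxC coding sequences as black bars. The 3 coding sequences lie inside the shading, the Sox11 peak spans 2 CpG-rich stretches, and the Sox6 peak lies almost wholly upstream of the start shown. The left shading at Sox4 is its separate upstream peak.

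Sox6, a SoxD gene that acts in cortical interneurons and cartilage, had the highest score and the longest peak of the SoxD genes. The peak of 4171 bp (chr7:116030846-116035016) had a score of 1319, rank 95 by score and 38 by length. It did not lie at the 5′-most start. That start, of transcripts Sox6-204 and Sox6-214, was 3780 bp away from the edge of the peak and had no PHF2 peak within 1 kb, although its 2 kb window had a CpG observed/expected of 0.546. It faces the start of 1110004F10Rik at a gap of 601 bp, and the only PHF2 promoter peak of that neighbour lay 53689 bp away from the Sox6 start. The peak instead covered 3 starts farther in, those of the noncoding transcripts Sox6-208 and Sox6-209 and of the coding transcripts Sox6-202 and Sox6-210. It also held the whole of Sox6os, an antisense gene (chr7:116031979-116032550), so the 2 genes share the peak.

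Within the Sox6 peak CpG came in 2 blocks, 53.5 per kb from 4000 to 2300 bp upstream of the coding start at 116031047 and 55.8 per kb from 1700 bp upstream to 200 bp downstream. The 600 bp between them held 5 CpG, 8.33 per kb. These limits too were chosen after the profile had been seen. The peak ended 201 bp downstream of that coding start. Of the 10 merged Sox6 starts, the other 7 had no peak, and the nearest PHF2 peak to the start of Sox6-201 was 35760 bp away.

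Sox13, a SoxD gene known as an autoantigen and from gamma delta T cells, had a peak of 2060 bp (chr1:133422454-133424513) with a score of 944.7, rank 216 by score and 684 by length. It lay almost wholly downstream of the 5′-most start, with 136 bp upstream and 1923 bp downstream, and 1422 bp of it was intronic. CpG density was 94.7 per kb in the peak and fell to 5.50 per kb in the 2 kb upstream of it. The other 3 starts, 31107 to 38851 bp farther down, had no peak.

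Sox5, the longest of the 6 genes and a regulator of deep-layer cortical neurons, had the lowest promoter score of the 6. Its highest score, 373.5 (rank 1497), belonged to a peak of 1532 bp (chr6:144780881-144782412) at the 5′-most start, which the annotation gives only to the noncoding transcripts Sox5-209 and Sox5-212. A weaker peak of 1682 bp (chr6:144208212-144209893, score 298.1, rank 2097) lay 572409 bp farther down, at the shared start of 6 transcripts that include the long coding ones. The 2 peaks differed in base composition. The upstream peak had 58.1 CpG per kb, and the peak at the coding start had 16.1 per kb, under the lower quartile of all PHF2 peaks (54.8 per kb). The Sox6 promoter peak, at 48.4 per kb, lay under that quartile too, but it ranked 38 by length. The 100 longest PHF2 peaks had a median of 53.3 CpG per kb, against 67.9 over all PHF2 peaks. Another Sox5 peak of 1246 bp (chr6:144180726-144181971) lay in an intron 22086 bp from the nearest start, with a score of 114.9, rank 5563 of 5992, and 15.2 CpG per kb. No PHF2 peak lay within 233620 bp of the start of the short coding transcripts. A gene with 2 or more promoter peaks was uncommon, 4.00% of those with any.

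Among the 6 genes, then, 4 (Sox4, Sox11, Sox6 and Sox13) stood in the top 10% of peaks by score, as did 9.70% of all genes with a PHF2 promoter peak. By length 3 did (Sox4, Sox11 and Sox6), beside 9.90%. Because these peaks were part of why the genes were picked, nothing is read from either count. Sox13 fell just outside the limit of 2131 bp, and the length order Sox11, Sox4, Sox6, Sox13, Sox12, Sox5 differed from the score order only in its leading pair. With 1 ChIP sample, no spread between cultures could be set against these ranks. SoxC and SoxD genes overlapped in both measures: Sox6 and Sox13 scored higher than Sox12, and Sox12 higher than Sox5.

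Of the other 14 Sox genes, 13 were on the chromosomes analysed (Sry, on Y, was not analysed here). A PHF2 promoter peak was found at 6 of these 13, beside 29.3% of all protein-coding genes. The 6 were the SoxB genes Sox1, Sox2, Sox3 and Sox21 and the SoxE genes Sox8 and Sox9. The 7 without were Sox14, Sox10, Sox7, Sox17, Sox18, Sox15 and Sox30, which include all 3 SoxF genes of endothelium and endoderm. Sox4 and Sox11 had the highest scores of the whole family, with Sox21 (2271) next. Sox11 had the longest peak, followed by Sox2 (4981 bp) and Sox4. None of the other 13 Sox genes had an H3K9me2 region at a start or in its body. Over all protein-coding genes 3.49% had a region at a start and 24.2% had one in the body. All of the 13 but Sox10 and Sox30 are under 10 kb, a class where 4.11% of genes had a region in the body.

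**Figure D2:**
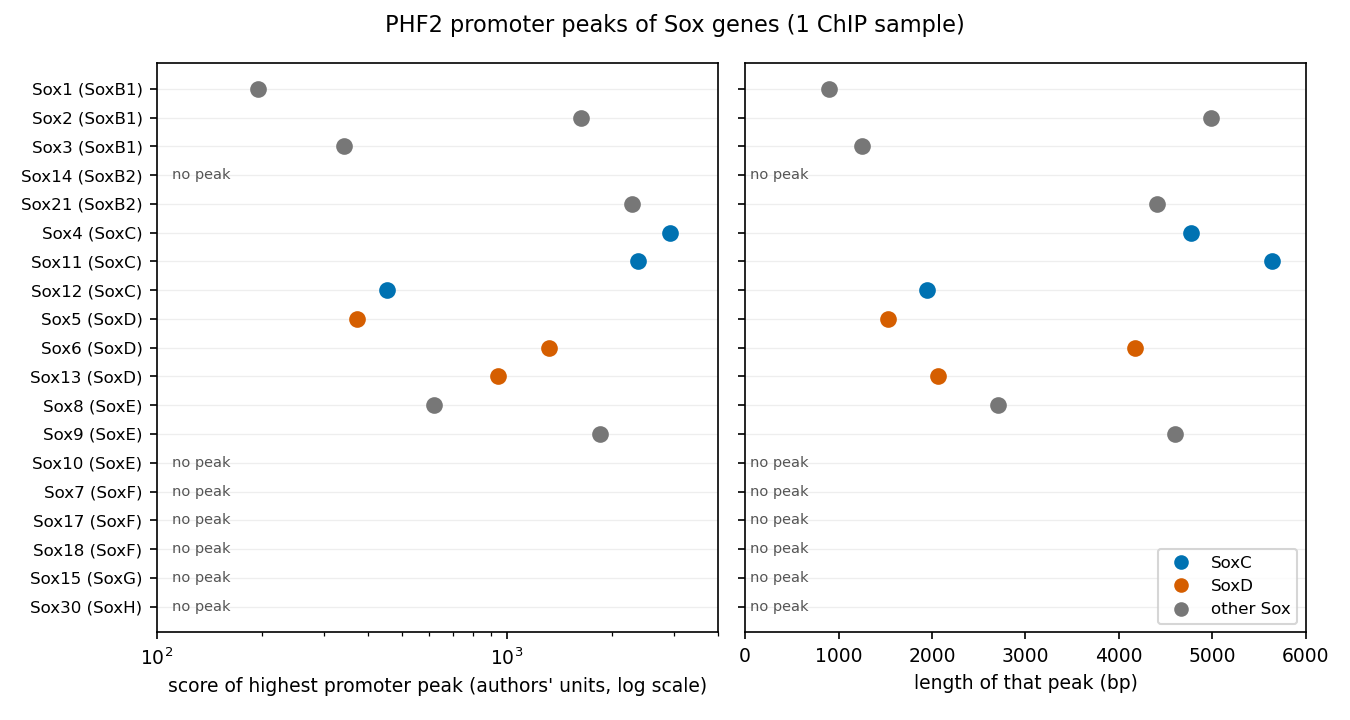
Score of the highest PHF2 promoter peak (left, the authors' units, log axis) and length of that peak in bp (right) for 19 Sox genes, 1 point per gene from 1 ChIP sample, with SoxC in blue, SoxD in orange and the other genes in grey. Sox4 (2931) and Sox11 (2369) lie farthest right by score, Sox5 (373.5) is the lowest of the 6, and genes marked "no peak" had none within 1 kb of a start.

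At the SoxD genes most annotated starts carried no PHF2 peak. Of 19 merged starts 6 (31.6%) had one within 1 kb, which were 2 of 5 at Sox5, 3 of 10 at Sox6 and 1 of 4 at Sox13. Over all genes with a PHF2 promoter peak and 3 or more merged starts, 40.1% of starts had one. The 3 Sox6 starts lie under a single peak, so the 6 starts stand for 4 peaks. Only Sox5 and Sox13 had a peak at the 5′-most start among the SoxD genes, so 5 of the 6 genes did in all, where 27.2% of protein-coding genes did. With starts of coding transcripts alone, 3 of 11 SoxD starts had a peak, 1 in each gene.

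CpG content, which the choice of the genes did not use, was higher around the SoxD starts with a peak, but the ranges overlapped. In windows of 2 kb the CpG observed/expected ran from 0.332 to 0.751 (median 0.583) at the 6 starts with a peak and from 0.161 to 0.546 (median 0.262) at the 13 without. Neighbouring windows overlap, and the starts share their genes, so no test was made. The start at the low end of the former group was the long coding start of Sox5 (0.332), and that at the high end of the latter was the 5′-most start of Sox6 (0.546). The SoxC starts lay higher, with 0.818 at Sox4, 0.967 at Sox11 and 0.937 at Sox12. In a shorter window, 250 bp before to 50 bp after a start, the median was 0.337 over all merged starts of protein-coding genes. Over those with PHF2 it was 0.824. In that window the starts used at Sox6 (0.443), Sox13 (0.530), Sox5 (0.579) and Sox4 (0.734) lay between these medians. Those at Sox11 (0.949) and Sox12 (1.07) lay above both.

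**Figure D3:**
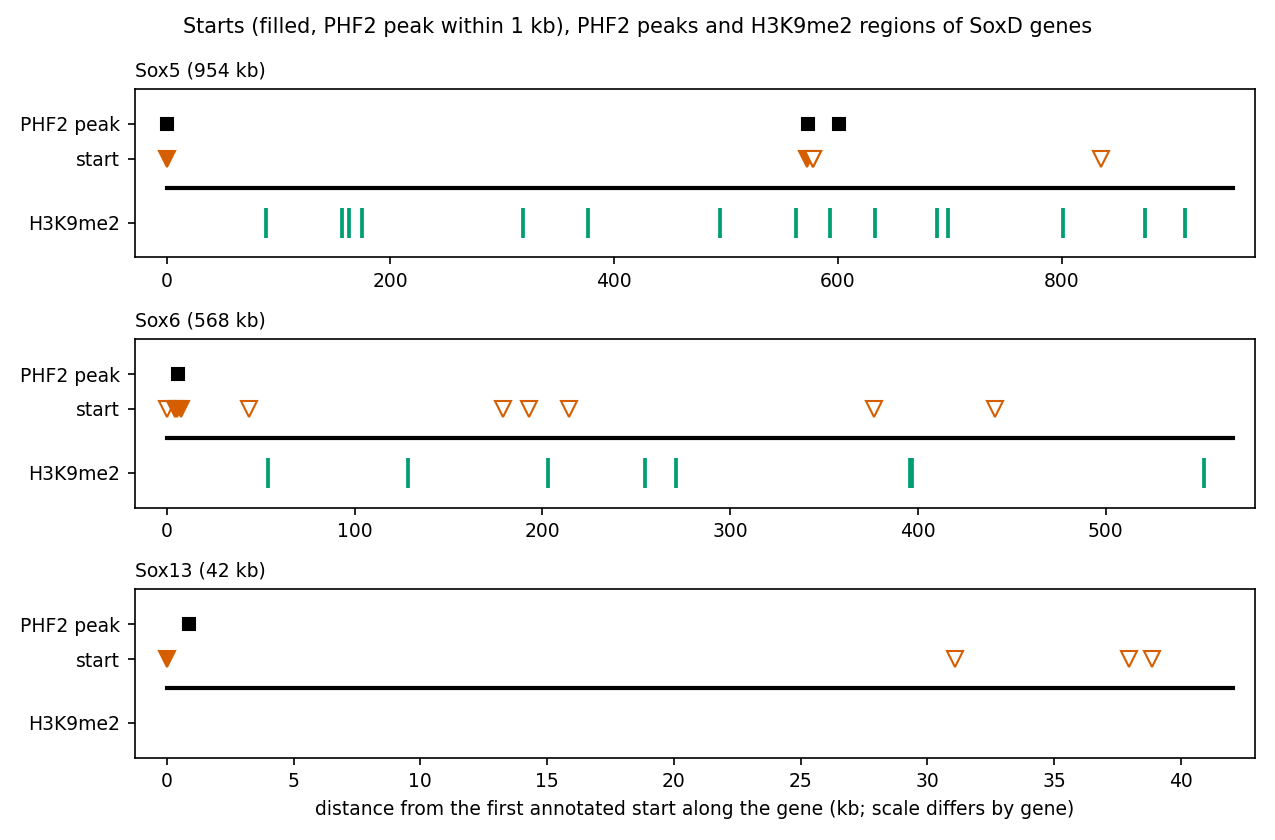
Map of each SoxD gene by distance in kb from its 5′-most start (horizontal axes, scaled separately), with merged starts as triangles (filled where a PHF2 peak lies within 1 kb), PHF2 peaks as squares and H3K9me2 regions as green ticks. Peaks sit at 6 of 19 starts, the 15 ticks of Sox5 and 8 of Sox6 spread along the bodies away from starts, and Sox13 has none.

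Short motifs were sought on both strands from 250 bp before to 50 bp after the start used for each gene, and compared with the same window at all 62978 merged starts of protein-coding genes. The start used was the coding start nearest to the centre of the highest-scoring peak, or a noncoding one where that peak had no other (Sox5). The GC box GGGCGG, the site of SP and KLF factors, was found at 4 of the 6 genes (4 copies each at Sox12 and Sox6, 1 each at Sox5 and Sox13), and at 29.2% of all starts and 64.1% of starts with PHF2. The CCAAT box, bound by NF-Y, was found at the 3 SoxC genes and at no SoxD gene, with 4 copies at Sox4 and 1 each at Sox11 and Sox12. It occurred at 33.9% of all starts and 32.4% of starts with PHF2. The E2F letters GGCGGGA were found at Sox13 only, and occurred at 9.28% of all starts and 22.5% of starts with PHF2. The E-box CACGTG (6.07% of all starts, 8.99% of those with PHF2) and TATAAA (13.6% and 5.74%) were found at none. The SOX letters AACAAT (11% of all starts, 5.20% of those with PHF2) and AACAAAG (6.11% and 3.90%) were found at none of the 6, which says only that these letters are not in these windows. Over the whole promoter peaks, which are longer, AACAAT occurred 3 times at Sox11 (0.532 per kb), 2 times in the 5′-most Sox5 peak (1.31 per kb) and 1 time each at Sox12, Sox13 and Sox6 (0.514, 0.485 and 0.240 per kb). It was in neither the Sox4 peak nor the Sox5 peak at the coding start, and its density over all PHF2 peaks was 0.271 per kb. AACAAAG occurred 1 time, at Sox11.

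No H3K9me2 region lay within 1 kb of any start of the 6 genes. Such regions were rare at promoters in general, 3.49% of all protein-coding genes by this definition. The nearest were 73 bp long and lay 4241 bp upstream of Sox13 (chr1:133428618-133428690) and 6788 bp upstream of Sox11 (chr12:27349362-27349434). These 2 of the 6 genes had a region within 10 kb of a start, as did 25.2% of all genes. At Sox5 and Sox6 the nearest lay just beyond, 10116 and 10355 bp from a start, while at Sox12 and Sox4 the distance was 57958 and 65737 bp. Over all protein-coding genes the median distance was 31367 bp.

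Within the bodies, the SoxC genes and Sox13 had no region, Sox5 had 15 and Sox6 had 8. A region in the body was found at 24.2% of all protein-coding genes, at 4.11% of those under 10 kb, the class of the SoxC genes, and at 100% of the 230 genes of 500 kb or more, the class of Sox5 and Sox6. Since the genes were chosen with these counts in view, nothing is read from them. Per Mb there were 15.7 regions in Sox5 (exact Poisson 95% interval 8.80 to 25.9, counting error only) and 14.1 in Sox6 (6.08 to 27.8). As a description, the summed density was 17.1 per Mb over genes of 500 kb or more and 13.0 per Mb over all protein-coding genes. Of the 230 genes of 500 kb or more, 139 had a higher density than Sox5 and 155 a higher one than Sox6. The upper limit of the same interval for the 0 regions in Sox13 was 87.7 per Mb.

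**Figure D4:**
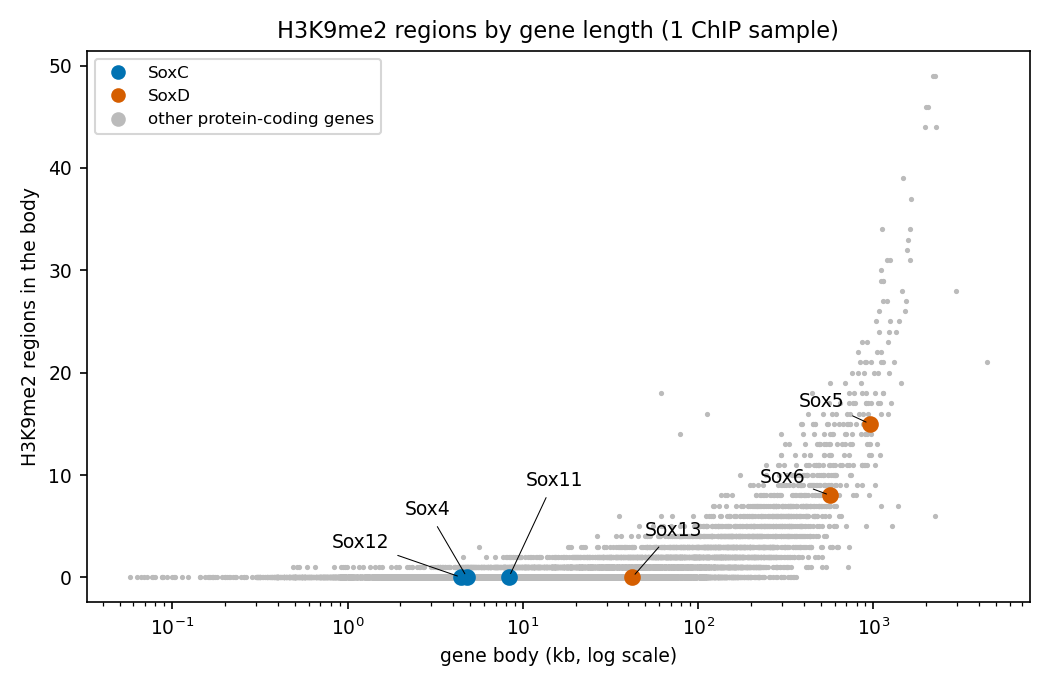
H3K9me2 regions in the gene body (vertical axis, count) against the length of the body in kb (horizontal log axis) for all protein-coding genes (grey), SoxC genes (blue) and SoxD genes (orange), from 1 ChIP sample. Sox5 with 15 and Sox6 with 8 regions lie among other genes of their length, and the SoxC genes and Sox13 lie at 0.

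The 23 regions in Sox5 and Sox6 were short and scattered along introns. Their lengths ran from 73 to 147 bp, and 13 (56.5%) had the minimum length in the list, 73 bp, as did 55.6% of all regions. The regions carry no usable score, so whether such short ones stand above background was not tested. All lay at least 10116 bp from a start of their own gene, and the gaps between neighbouring regions ran from 1205 bp to 155434 bp. In Sox5, 8 of the 15 lay upstream of the first coding start, in the part that only noncoding transcripts span (14 per Mb, exact Poisson 95% interval 6.03 to 27.5), and 7 lay beyond it (18.4 per Mb, 7.38 to 37.8). One region overlapped an exon, that of the noncoding transcripts Sox5-209 and Sox5-212, and the longest lay within Sox5os3, an antisense gene.

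The sequences of 5 regions are printed along the minus strand with CpG in capitals, chosen as the longest, the exonic one, the one nearest to a PHF2 peak and the 2 others closest to an exon.
Sox5 longest region (chr6:144693047-144693193, minus strand): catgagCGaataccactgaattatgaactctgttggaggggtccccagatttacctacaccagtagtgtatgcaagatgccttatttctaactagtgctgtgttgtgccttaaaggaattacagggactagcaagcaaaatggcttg
Sox5 exonic region (chr6:144625581-144625653, minus strand): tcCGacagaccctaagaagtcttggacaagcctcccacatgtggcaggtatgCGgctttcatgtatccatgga
Sox5 region nearest to a PHF2 peak (chr6:144189117-144189189, minus strand): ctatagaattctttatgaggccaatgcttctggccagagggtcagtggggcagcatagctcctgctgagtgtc
Sox5 region beside an exon (chr6:143907548-143907620, minus strand): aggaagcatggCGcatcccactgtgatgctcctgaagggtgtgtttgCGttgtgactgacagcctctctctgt
Sox6 region beside an exon (chr7:115486416-115486504, minus strand): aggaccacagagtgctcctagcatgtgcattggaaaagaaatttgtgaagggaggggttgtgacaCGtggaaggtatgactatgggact
The printed regions held 0 to 2 CpG each, and a Sox5 region that is not printed held 3. The promoter stretches printed above are longer. They held 9 to 31 CpG at the SoxC genes, but 3 at the long coding start of Sox5, which has a PHF2 peak. The counts were not scaled by length, so no difference in CpG density between the regions and promoters is read from them. The region nearest to a PHF2 peak lay 7146 bp from the weak intronic peak of Sox5, between it and the peak at the long coding start. The regions beside exons lay 15 bp from a Sox5 exon and 44 bp from a Sox6 exon. Over all 23 regions, the distance to the nearest PHF2 peak ran from 7146 to 544342 bp. The GC content had a median of 43.8% in the Sox5 regions and 41.4% in the Sox6 regions. None of the 23 was soft-masked as repeat over at least 50% of its length, against 14.7% of the 13581 regions in bodies of protein-coding genes and 18.0% of the list. With 23 regions from 2 genes no test was made.

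Of 7 genes known as targets or partners of SoxC proteins, 4 had a promoter peak, the microtubule gene Map2 (score 660.1), the homeobox gene Prox1 (699.6) and the POU factor genes Pou3f2 (358.0) and Pou3f3 (670.7). Tubb3, Dcx and Tead2 had none. Over all protein-coding genes the share was 29.3%. Of 6 genes linked to SoxD proteins, Sox9 (1839) and the cortical factor gene Bcl11b (221.5) had a peak, and the cartilage genes Col2a1 and Acan, Fezf2 and Sox10 had none. None of these genes had an H3K9me2 region at a start, beside 3.49% of all protein-coding genes.

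Other protein-coding genes resembled the 6 in 3 percentile ranks, those of the highest promoter score, the length of that peak and the number of H3K9me2 regions in the body, over the 6374 genes with a promoter peak. The nearest to Sox4 were Marcks and Spry2, at a distance of 0.111 and 0.140 percentile points, and to Sox11 Bahcc1 (0.0222) and Marcks (0.134). Ilk and Rrp8 came nearest to Sox12 (0.898 for both, which have the same score and peak length), and Eef1a1 (0.250) and Eif4a2 (0.711) to Sox13. Sox6 was nearest to Nfib (0.709), with 10 regions in its body, and Adgrl3 (0.802), with 9. For Sox5 the nearest lay farther off, Sipa1l1 (3.60) and Ptpro (4.30). Each had 6 regions, in bodies of 282467 and 210915 bp, where Sox5 had 15 in 953553 bp. The ranks used counts that were not scaled by body length.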

How the data were processed

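Bowtie2 and mm10 are named in the submitters' processing notes. PHF2 peaks came from MACS in Galaxy, per the file headers, and carry a deposited score. The H3K9me2 list is labelled with a p-value limit, and the test behind that limit is not stated. For the caller of the H3K9me2 regions, and for versions, controls and other settings: not given in the sources used here. Each deposited score of an H3K9me2 region is 0, so only positions were used, and these regions could not be ranked.

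Positions are 1-based on mm10, and the annotation was GENCODE M21 on GRCm38, the same assembly. Peaks were assigned by an overlap of at least 1 bp to windows of 1000 bp on either side of every annotated start, pooled per gene, and to gene bodies. With starts of coding transcripts alone, 21670 genes remained, 6306 (29.1%) with PHF2 and 498 (2.30%) with H3K9me2. Python 3.11.15 and SciPy 1.17.1 were used, and the assignment was tested on simulated data. No p-values were computed. The genes and gene lists were chosen with earlier results of these data known. Genes named in the text were the 6, the other Sox genes, listed targets and partners, overlapping and neighbouring genes, and the 2 most alike per gene. Alternatives were other windows, starts, overlaps and score limits.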

Additional observations from a re-analysis of the deposited data

How the results depend on the processing

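Of 26 alternatives over 7 results, 22 gave a value within 1.5 times the reported one, and 4 of the 26 were chosen after seeing the data. Some of the 22 could not move. Wider windows can only keep all 6 genes with a PHF2 peak. Narrower windows, fewer starts or fewer regions can only keep the 0 H3K9me2 regions at promoters. A fall from 6 genes to 4 also counted as within 1.5 times. The 4 that moved further were counts. With starts of protein-coding transcripts only, 3 of 11 SoxD starts had a PHF2 peak, in place of 6 of 19, because 3 of the marked starts belong to noncoding transcripts. With windows of 5 kb, 1 gene (Sox13) had an H3K9me2 region near a start, in place of 0. Regions longer than the minimum length numbered 10 in the bodies, in place of 23, and the extent of coding transcripts held 15. Within the smaller shifts, 5 genes had a PHF2 peak with the 5′-most start alone (not Sox6), and 4 when the centre of the peak had to lie in the window, which the long peaks of Sox4 and Sox11 do not meet. With summed scores, Sox5 joined the top 10%. No paired analysis was possible because each target had 1 sample. Depth is unknown and no replicate spread could be given.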
